A study of Sus scrofa with 8 samples.

Results

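Retinoic acid receptors, their carrier protein CRABP2 and the enzymes that make retinoic acid or hold back its synthesis were measured in undifferentiated porcine synovial mesenchymal stem cells (SMSCs). The 10 genes were RARA, RARB, RARG, RXRA, CRABP1, CRABP2, ALDH1A1, ALDH1A2, CYP26B1 and DHRS3. All probe sets carrying one of these symbols in the platform's probe annotation were taken, which gave 10 probe sets of 8 genes among 47722 probe sets tested. No probe set carried the symbol CRABP1 or CYP26B1, and these 2 genes were not analysed here. CRABP2 and DHRS3 had 2 probe sets each and the other 6 genes had 1.

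The cells came from Angeln Saddleback (AS) and German Landrace (DL) pigs. In each breed SMSCs were isolated from the fat pad behind the patellar ligament, which is adipose synovium (FP), and from the lateral capsule of the joint, which is fibrous synovium (FS), giving AS-FP, AS-FS, DL-FP and DL-FS cells. All groups were untreated cells at passage 3 from the stifle joints of 3 male piglets per breed, 59 days of age, and each group was hybridised on 2 arrays numbered 1 and 2. The methods describe the RNA as taken from cell pools of all animals, so the arrays of a group are not described as separate animals. Whether they came from separate pools or cultures is not given in the sources used here. The p-values therefore reflect the spread among these arrays alone, which may be technical.

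Retinol taken up by a cell is oxidised to retinaldehyde, and retinaldehyde dehydrogenases of the ALDH1A family oxidise that to retinoic acid, while DHRS3 reduces retinaldehyde back to retinol. CRABP2 carries retinoic acid to the nucleus, where the receptors RARA, RARB and RARG bind DNA as heterodimers with a retinoid X receptor such as RXRA. RARB, CRABP2 and DHRS3 are themselves known retinoic acid target genes. Retinoic acid is known for its part in limb patterning and cartilage formation and for restraining the differentiation of fat cells.

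All values are log2 signals after robust multi-array averaging (RMA), and a difference of 1 is a 2-fold change. Array medians lay between 4.58 and 4.64, and the medians of the 69 background probe sets between 2.66 and 2.81. The background probe sets with the most signal reached far higher, with 95th percentiles between 7.20 and 7.61, and background signal rose with the GC content of the probes. The defining stem cell markers THY1 (10.82 to 11.26), ITGB1 (11.24 to 11.60), ENG (9.03 to 9.48) and CD44 (8.74 to 9.45) were high on all 8 arrays. NT5E, another such marker, was at 2.74 to 3.22, near the background median. PTPRC, which marks blood cells, was below the highest background median on all 8 arrays (1.91 to 2.42). Signals come from whole cultures, in which fewer expressing cells and less RNA per cell cannot be told apart.

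**Figure D1:**
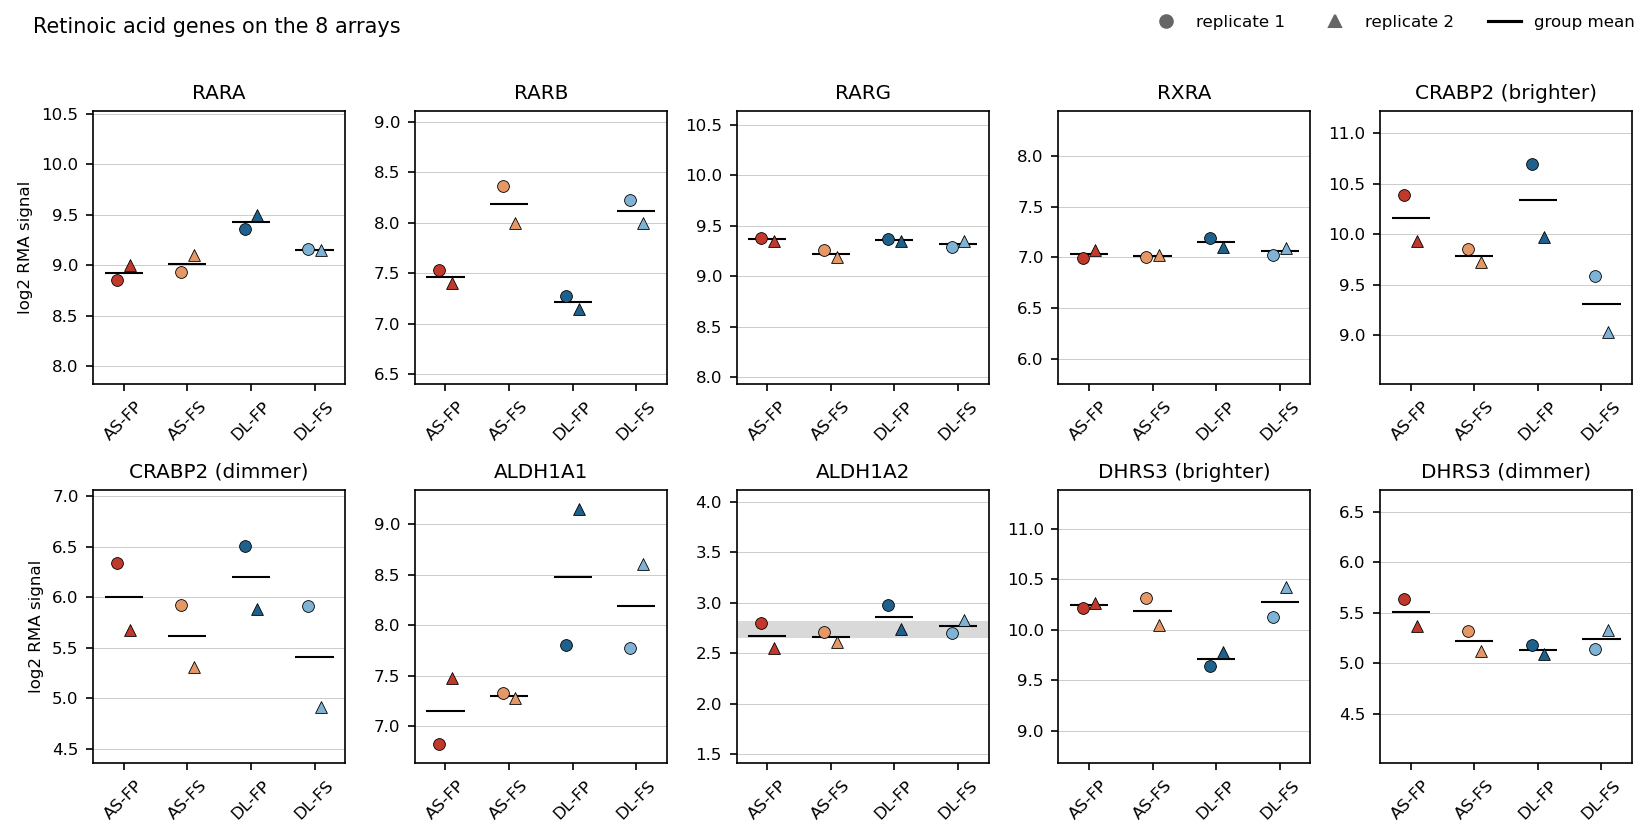
The log2 RMA signal of the 10 probe sets is plotted for each array, with AS-FP, AS-FS, DL-FP and DL-FS from left to right, circles for replicate 1, triangles for replicate 2 and lines for group means. Every panel spans the same height, and the grey band for ALDH1A2 marks the background medians of 2.66 to 2.81. RARB was lower on all 4 FP arrays, CRABP2 was lower on replicate 2 in each group, and ALDH1A1 was lower on all 4 AS arrays.

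RARB, the receptor that retinoic acid itself induces, was lower in FP than in FS cells of both breeds. Its signal was 7.53 and 7.41 in AS-FP cells, against 8.37 and 8.0 in AS-FS cells. In DL pigs it was 7.28 and 7.14 in FP cells, against 8.23 and 8.0 in FS cells. The highest FP array stayed below the lowest FS array. RARB averaged 7.34 ± 0.17 in FP cells and 8.15 ± 0.18 in FS cells (SD, n = 4 each), a difference of -0.81 (SE 0.11, 95% interval -1.06 to -0.55, limma, Benjamini-Hochberg adjusted p = 0.051), or 1.75-fold lower in FP. Among the 10 probe sets this was the only call at an adjusted p of 0.1 or less between the tissues, and 0.264% of all probe sets were called. At an unadjusted p under 0.05 there were 3 of 10, against 5.1% of all probe sets.

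The 4 pairs of arrays of like breed and replicate number all showed RARB lower in FP, by -0.84 and -0.59 in AS and by -0.95 and -0.86 in DL. Within AS the difference was -0.71 (adjusted p = 0.367) and within DL -0.90 (adjusted p = 0.245), both from limma. With the replicate number as a block in the fit both passed, at an adjusted p of 0.0432 in AS and 0.0245 in DL, and the difference over both breeds had an adjusted p of 0.0044. The tissue differences of the breeds were not shown to differ (0.19, 95% interval -0.32 to 0.70). The call over both breeds was kept without AS-FS replicate 2 (adjusted p = 0.0709) or DL-FS replicate 2 (0.0975). It was lost without any of the other 6 arrays, with adjusted p-values up to 0.232. Over all 8 of these runs the difference was -0.90 to -0.72. In the order of group means, AS-FP (7.47) lay above DL-FP (7.21) by 0.26, which did not pass (adjusted p = 0.951), and both lay below DL-FS (8.12) and AS-FS (8.18), whose arrays overlapped. Between the breeds RARB differed by 0.16 (95% interval -0.09 to 0.42, adjusted p = 0.770).

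The other receptors showed no such tissue difference. RARA averaged 9.18 ± 0.30 in FP and 9.09 ± 0.11 in FS cells (SD, n = 4 each), a difference of 0.09 (95% interval -0.10 to 0.28). RARG had 9.38 and 9.35 in AS-FP, 9.26 and 9.19 in AS-FS, 9.37 and 9.35 in DL-FP and 9.29 and 9.35 in DL-FS cells. RARG thus differed by 0.09 between the tissues (95% interval -0.07 to 0.26) and by -0.04 between the breeds (-0.21 to 0.12). RXRA, the heterodimer partner, had 7.0 and 7.07 in AS-FP, 7.01 and 7.03 in AS-FS, 7.20 and 7.11 in DL-FP and 7.02 and 7.09 in DL-FS cells. The RXRA intervals were -0.13 to 0.25 for FP minus FS and -0.27 to 0.11 for AS minus DL. For RARG and RXRA the intervals of both comparisons reached at most 0.27 in size.

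CRABP2, which delivers retinoic acid to its receptors, was higher in FP, against FS, at both of its probe sets with the replicate block. At the probe set with the higher mean it had 10.39 and 9.93 in AS-FP cells, against 9.86 and 9.72 in AS-FS cells. In DL pigs it had 10.70 and 9.98 in FP cells, against 9.58 and 9.04 in FS cells. The 4 FP arrays lay above the 4 FS arrays, though AS-FP replicate 2 (9.93) and AS-FS replicate 1 (9.86) were close. CRABP2 averaged 10.25 ± 0.36 in FP cells and 9.55 ± 0.36 in FS cells (SD, n = 4 each), a difference of 0.70 (SE 0.19, 95% interval 0.26 to 1.14). This did not pass in limma (adjusted p = 0.459) and passed with the replicate block (adjusted p = 0.0177). The second probe set had 6.34 and 5.68 in AS-FP, 5.93 and 5.31 in AS-FS, 6.51 and 5.89 in DL-FP and 5.92 and 4.91 in DL-FS cells. There the arrays of FP and FS overlapped, and the difference of 0.59 (SE 0.27) had an adjusted p of 0.999, or 0.0631 with the block. Leaving out each array gave 0.52 to 0.88 at the probe set with the higher mean and 0.34 to 0.84 at the second, the lowest without DL-FS replicate 2.

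Replicate 2 was lower than replicate 1 in 4 of 4 groups at both CRABP2 probe sets, by -0.46 on average at one and by -0.73 at the other. The replicate-matched differences of CRABP2 between FP and FS were all positive, at 0.53 and 0.21 in AS and 1.12 and 0.94 in DL for the probe set with the higher mean. The second probe set gave 0.41 and 0.37 in AS and 0.60 and 0.98 in DL. Within DL the difference at the probe set with the higher mean was 1.03 (adjusted p = 0.639, or 0.0367 with the block; 0.67 without DL-FP replicate 1), and within AS it was 0.37 (adjusted p = 1.0, or 0.537 with the block). The difference between those values, -0.66, did not pass (95% interval -1.53 to 0.21, adjusted p = 1.0).

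With the replicate block, 3 of the 10 probe sets were called between the tissues (RARB and both of CRABP2), and 0.987% of all probe sets were. The arrays of FP and FS did not overlap at 2 of 10 (RARB and CRABP2), against 2.79% of all probe sets (1.39% with FP higher and 1.4% with FP lower). The median tissue difference was 0.08 over the 10 and 0.00 over all probe sets, and the median size was 0.09 in each case. In DL alone limma called 0 of 10 (0.044% of all, with 4 of 10 at an unadjusted p under 0.05, against 4.2% of all), or 2 with the block (0.434%). In AS alone it called 0 (0.0545%, with 1 at an unadjusted p under 0.05, against 5.03%), or 1 with the block (0.495%).

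**Figure D2:**
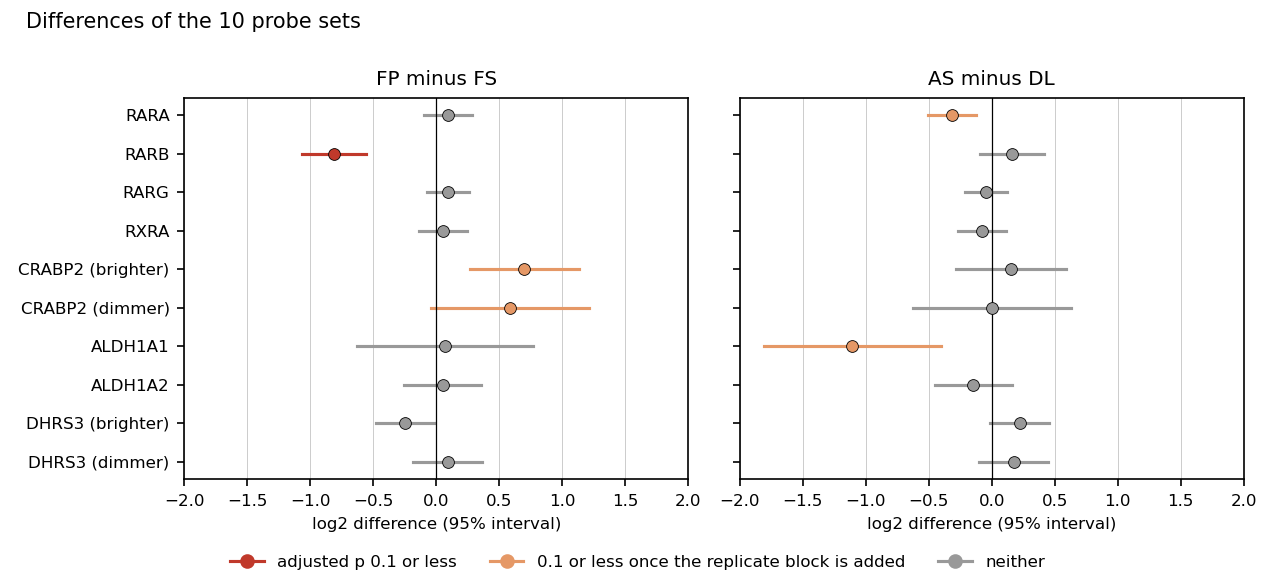
The log2 difference of each probe set is plotted with its 95% interval, for FP minus FS on the left and AS minus DL on the right. RARB at -0.81 was the only call in the fit without the block (red), and orange marks the probe sets that passed once the replicate block was added, which were both of CRABP2 for the tissues and ALDH1A1 and RARA for the breeds.

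Markers of other cell types were read at their probe set with the highest mean. Of the 5 adipocyte markers, all had means above the highest background median. LPL, which releases fatty acids from lipoproteins, was called higher in FP (4.67 ± 0.51 in FP and 3.08 ± 0.78 in FS cells, SD, n = 4 each, adjusted p = 0.0882). At this probe set the DL-FS mean of 2.55 lay below the highest background median. The other LPL probe sets differed by 0.51, 0.40 and -0.005 between FP and FS, and none was called with or without the block. FABP4 followed with the replicate block (difference 1.14, adjusted p = 0.0247). ADIPOQ was not called at its probe set with the highest mean, with or without the block. Of its other 5 probe sets, 1 was called without the block (1.19, limma adjusted p = 0.0246, or 0.0061 with the block). Another was called with the block alone (1.29, adjusted p = 0.170, or 0.0819 with the block). The summed linear signal of the 5 markers was 247.7 to 332.4 on FP arrays and 183.9 to 265.1 on FS arrays. The pericyte marker KCNJ8 was also higher in FP (6.85 ± 0.47 in FP and 5.68 ± 0.37 in FS cells, adjusted p = 0.0759), while RGS5, another pericyte marker, was below background on all 8 arrays (1.75 to 2.16). Of 5 pericyte and smooth muscle genes 1 was called, with a sum of 5227 to 7448 on FP arrays and 3917 to 7535 on FS arrays. SOX9, of 3 chondrocyte markers, was called higher in FP as well (8.67 ± 0.13 in FP and 8.04 ± 0.23 in FS cells, adjusted p = 0.0785), with a sum of 620.2 to 751.4 on FP arrays and 525.0 to 592.3 on FS arrays. ACAN, another of the 3, was lower in FP with the block (6.05 ± 0.17 in FP and 6.67 ± 0.11 in FS cells, adjusted p = 0.121, or 0.0531 with it). Of the 4 lining synoviocyte markers 0 were called without the block. With it VCAM1 was higher in FP (difference 0.55, adjusted p = 0.0482) and CD55 lower (-0.37, adjusted p = 0.0521), and the list summed to 1344 to 1600 on FP arrays and 1278 to 2128 on FS arrays. The CD55 difference lay in DL (-0.70), with -0.05 in AS, while VCAM1 differed by 0.34 in DL and 0.76 in AS. The part of these cell types in the RARB and CRABP2 differences was not tested.

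ALDH1A1, which oxidises retinaldehyde to retinoic acid, was lower on every AS array than on any DL array. It had 6.83 and 7.48 in AS-FP cells, against 7.81 and 9.15 in DL-FP cells. In FS cells it had 7.33 and 7.28 in AS, against 7.78 and 8.61 in DL. The AS arrays lay closer together than the DL arrays. Replicate 2 minus replicate 1 was 1.34 in DL-FP, 0.83 in DL-FS, 0.65 in AS-FP and -0.04 in AS-FS cells. ALDH1A1 averaged 7.23 ± 0.28 in AS and 8.33 ± 0.67 in DL cells (SD, n = 4 each), a difference of -1.11 (SE 0.31, 95% interval -1.81 to -0.40), or 2.15-fold lower in AS. It did not pass in limma (adjusted p = 0.287) and passed with the replicate block (adjusted p = 0.0337) or among probe sets with an SD above 0.25 (adjusted p = 0.0554). Within replicate 1 the breeds differed by -0.71 and within replicate 2 by -1.50. In FP the difference was -1.32 (adjusted p = 0.614, or 0.111 with the block) and in FS -0.89 (adjusted p = 0.770, or 0.245 with the block). Between FP and FS the gene differed by 0.07 (95% interval -0.63 to 0.77).

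RARA, a receptor present in most tissues, was also lower in AS, by a smaller step. It had 8.86 and 9.0 in AS-FP cells, against 9.36 and 9.49 in DL-FP cells. In FS cells it had 8.93 and 9.10 in AS, against 9.16 and 9.15 in DL. The arrays of the breeds did not overlap, with only 0.05 between AS-FS replicate 2 and its DL match. RARA averaged 8.97 ± 0.10 in AS and 9.29 ± 0.17 in DL cells (SD, n = 4 each), a difference of -0.32 (SE 0.08, 95% interval -0.51 to -0.13, adjusted p = 0.253, or 0.0484 with the block). In FP cells the breeds differed by -0.50 (adjusted p = 0.338, or 0.0652 with the block), and in FS cells by -0.14 (adjusted p = 0.899, or 0.634 with the block). The test of that dependence on tissue gave -0.36 (95% interval -0.74 to 0.02, adjusted p = 1.0).

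**Figure D3:**
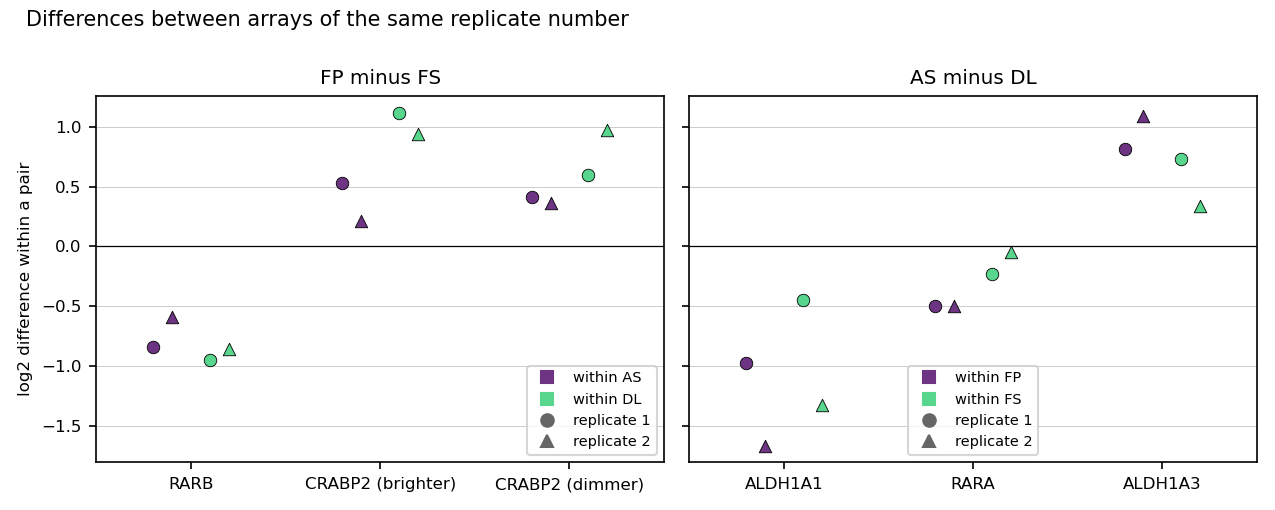
Each point is the log2 difference between arrays of the same replicate number (circles 1, triangles 2), FP minus FS within AS (purple) and DL (green) on the left, and AS minus DL within FP (purple) and FS (green) on the right. All 4 points of RARB, ALDH1A1 and RARA lay below 0, and all 4 of both CRABP2 probe sets and of ALDH1A3 above it.

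Between the breeds 0 of the 10 probe sets were called in limma, against 0.666% of all probe sets. At an unadjusted p under 0.05 there were 2 of 10, against 8.72% of all. With the replicate block 2 were called (ALDH1A1 and RARA, both lower in AS), against 3.04% of all probe sets. The breeds did not overlap at these same 2, against 5.2% of all probe sets, of which 2.86% had AS lower and 2.34% AS higher. Within FP limma called 0 of 10 between the breeds (0.212% of all, with 3 of 10 at an unadjusted p under 0.05, against 5.95% of all), or 1 with the block (RARA, 0.826%). Within FS it called 0 (0.0943%, with 0 at an unadjusted p under 0.05, against 6.88%), or 0 with the block (1.07%). The median breed difference was -0.02 over the 10 and 0.01 over all probe sets, with median sizes of 0.16 and 0.11. The lining synoviocyte marker PDPN was lower in AS than in DL cells as well, the only call among 4 such markers, whose summed signal was 1278 to 1536 on AS and 1344 to 2128 on DL arrays. With the block, PECAM1, 1 of 4 endothelial markers, was called lower in AS (-0.53, adjusted p = 0.0200, summed signal 154.4 to 175.4 on AS and 173.6 to 235.0 on DL arrays), and ADIPOQ, 1 of 5 adipocyte markers, higher (0.58, adjusted p = 0.0445, summed signal 203.4 to 332.4 on AS and 183.9 to 309.1 on DL arrays). Other probe sets of 2 adipocyte markers were called higher in AS without the block, 2 of ADIPOQ (2.17 and 1.93, adjusted p = 0.0165 and 0.0020) and 1 of LPL (0.84, adjusted p = 0.0997). FABP4, also an adipocyte marker, went the other way. It was lower in AS at both of its probe sets (-0.48 and -0.41), not called with or without the block. The block also called KCNJ8 higher in AS (0.52, adjusted p = 0.0695; pericyte and smooth muscle sum 5227 to 7535 on AS and 3917 to 7448 on DL arrays). The second KCNJ8 probe set differed by only 0.03 between the breeds (limma adjusted p = 0.976, or 0.950 with the block). Among the 5 stem cell markers the block called CD44 higher (0.29, adjusted p = 0.0617) and ENG lower in AS (-0.27, adjusted p = 0.0745), with a sum of 5279 to 6183 on AS and 5389 to 6347 on DL arrays. Their part in the breed differences was not tested.

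DHRS3, which turns retinaldehyde back into retinol, had its lowest signals in DL-FP cells. The probe set with the higher mean had 10.22 and 10.27 in AS-FP and 10.32 and 10.05 in AS-FS cells, with 9.65 and 9.78 in DL-FP and 10.13 and 10.42 in DL-FS cells. Both DL-FP arrays lay below the other 6. The tissue difference was -0.56 in DL (adjusted p = 0.604, or 0.216 with the block) and 0.06 in AS. The breed-by-tissue difference of 0.62 (SE 0.20, 95% interval 0.16 to 1.08) had an unadjusted p of 0.0146 and an adjusted p of 1.0 in limma. In the breed-by-tissue test 0 of 47722 probe sets were called with or without the block, and 1 of the 10 had an unadjusted p under 0.05 without it, against 3.58% of all. The second DHRS3 probe set ranged from 5.09 to 5.64, and its breed-by-tissue difference was 0.39 (95% interval -0.16 to 0.94). It differed by 0.09 between FP and FS, where the other probe set differed by -0.25.

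ALDH1A2, the main retinaldehyde dehydrogenase of the mouse embryo, was at 2.80 and 2.56 in AS-FP, 2.71 and 2.61 in AS-FS, 2.98 and 2.74 in DL-FP and 2.70 and 2.84 in DL-FS cells. Its mean over the 8 arrays was 2.74, below the highest of the background medians (2.81). The other 9 probe sets had means above it.

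The wider retinoid pathway held 56 further genes, of which 45 had a probe set and 43 a mean above the highest background median. Each was read at the probe set with its highest mean. Between the tissues 1 was called higher in FP and 0 lower, and between the breeds 1 was called higher in AS and 0 lower, where 0.264% and 0.666% of all probe sets were called. With the block there were 2 higher and 1 lower in FP (0.987% of all probe sets in either direction), and 3 higher and 1 lower in AS (3.04%).

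Among the synthesis enzymes ALDH1A3, which catalyses the same step as ALDH1A1, was higher in AS. It had 10.18 and 10.31 in AS-FP cells, against 9.36 and 9.22 in DL-FP cells. In FS cells it had 9.99 and 10.09 in AS, against 9.26 and 9.75 in DL. The breeds did not overlap on any array. ALDH1A3 averaged 10.14 ± 0.14 in AS and 9.40 ± 0.24 in DL cells (SD, n = 4 each), a difference of 0.74 (SE 0.12, limma adjusted p = 0.0516, or 0.0121 with the block). Within FP the difference was 0.95 (adjusted p = 0.132, or 0.0363 with the block). The call was kept without DL-FS replicate 1 (adjusted p = 0.0899) or replicate 2 (0.0317), and lost without any of the other 6 arrays (up to 0.214). The 4 AS arrays thus lay above the 4 DL arrays for ALDH1A3 and below them for ALDH1A1. The other 9 synthesis genes measured had no call.

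Among the partners of RXR, PPARG, the master regulator of fat cell differentiation, was higher in FP. It had 6.65 and 6.94 in AS-FP cells, against 5.72 and 5.63 in AS-FS cells. In DL pigs it had 7.06 and 6.80 in FP cells, against 5.48 and 6.11 in FS cells. PPARG averaged 6.86 ± 0.18 in FP and 5.73 ± 0.27 in FS cells (SD, n = 4 each), a difference of 1.13 (SE 0.16, limma adjusted p = 0.051, or 0.0169 with the block). The call was kept without DL-FS replicate 2 alone (adjusted p = 0.0349) and lost without any of the other 7 arrays (up to 0.210). Its other 4 probe sets differed by 0.38 to 1.29 in the same direction. VDR, the vitamin D receptor, averaged 6.89 ± 0.17 in FP and 6.25 ± 0.15 in FS cells, and passed with the block (difference 0.65, adjusted p = 0.151, or 0.0226 with the block), as it did within AS (0.76, adjusted p = 0.403, or 0.0761 with the block). The other VDR probe sets differed by 0.22 and -0.03 between FP and FS, and neither was called with or without the block. THRB, a thyroid hormone receptor, differed between the breeds within FS, by -0.86, and passed with the block (adjusted p = 0.163, or 0.0503 with the block).

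Of the carriers, RBP4, which transports retinol in blood, averaged 6.21 ± 0.18 in AS and 6.90 ± 0.19 in DL cells (SD, n = 4 each). The difference of -0.69 missed the threshold (adjusted p = 0.107) and passed with the block (0.0490). The coactivator NCOA1 was at 8.53 ± 0.06 in AS and 8.26 ± 0.16 in DL cells (adjusted p = 0.295, or 0.0921 with the block). Of the reported target genes, TNFAIP2 averaged 8.41 ± 0.35 in AS and 7.77 ± 0.26 in DL cells (adjusted p = 0.178, or 0.0801 with the block). MEIS2, a homeodomain factor of the proximal limb, averaged 7.07 ± 0.37 in FP and 7.77 ± 0.21 in FS cells (adjusted p = 0.261, or 0.0430 with the block). Its other 4 probe sets had signals between 3.58 and 6.71 and differed by -0.12 to 0.33 between FP and FS.

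**Figure D4:**
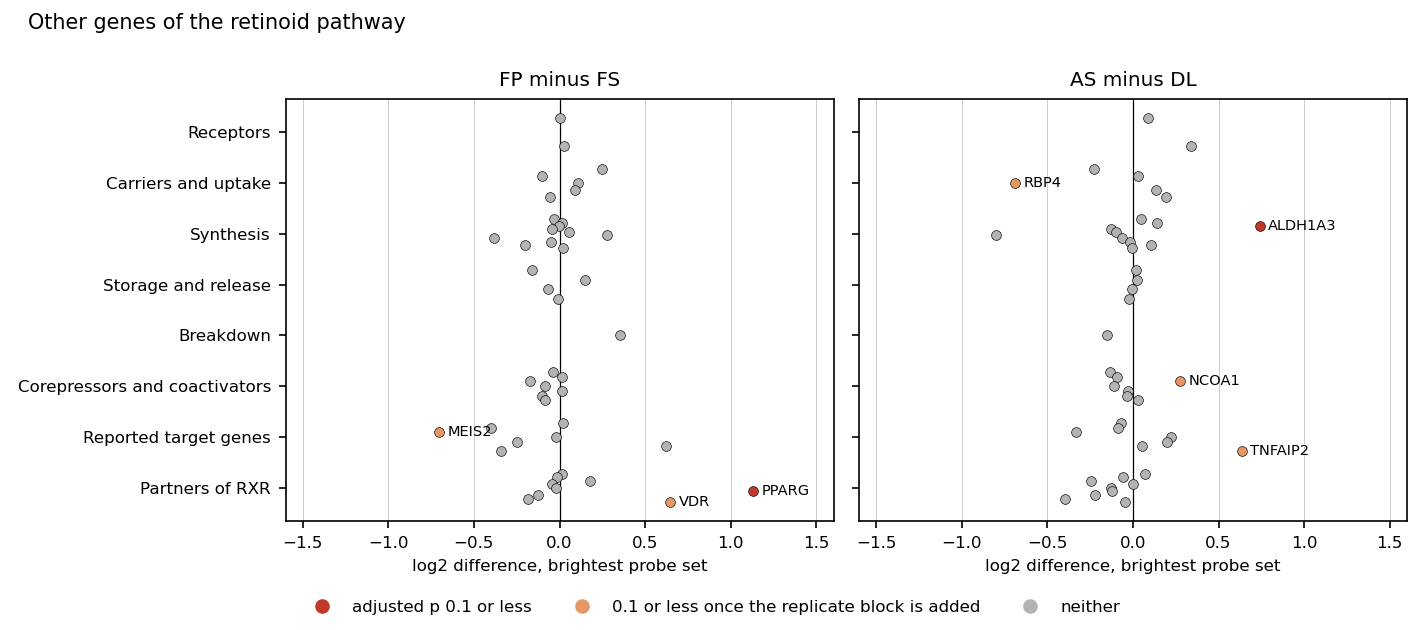
The log2 difference of each further retinoid gene, at its probe set with the highest mean, is plotted by role, FP minus FS on the left and AS minus DL on the right. PPARG at 1.13 and ALDH1A3 at 0.74 (red) were the only calls in the fit without the block. Orange marks genes called once the block was added.

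ALDH1A1 varied most over the 8 arrays among the probe sets above background (SD 0.76). Likeness was measured as the root mean square difference between profiles centred on their own means, over 8 arrays. The closest genes were CYP3A46 (0.247), AES (0.273), RYR2 (0.308), GPX3 (0.312) and CPEB1 (0.318). All 5 had higher means in both DL groups than in both AS groups, which follows from their selection for likeness and is no separate result. GPX3, a secreted glutathione peroxidase, averaged 6.58 in AS-FP, 6.47 in AS-FS, 7.37 in DL-FP and 7.50 in DL-FS cells. For RARB, a comparison added after its values were seen, the closest were MID1 (0.147), AGO4 (0.152), PTGIS (0.156) and CREB5 (0.159). PTGIS, the prostacyclin synthase, averaged 9.11 in AS-FP, 9.51 in AS-FS, 8.78 in DL-FP and 9.45 in DL-FS cells.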

How the data were processed

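Total RNA of the SMSC pools was hybridised to the Porcine Snowball Array. Scanning used GCOS 1.1.1 per the submitters' processing notes, and the authors deposited log2 expression values, background-corrected, normalized and summarised by RMA, for 47845 probe sets. The 123 control probe sets were left out. Of the 47722 tested, 26014 had 1 gene symbol, 21296 had none, and 412 microRNA symbols were not used; 422 symbols were updated. Group means were fitted per probe set with limma 3.58.1 in R 4.3.3 with a variance trend, p-values were adjusted over all probe sets by Benjamini-Hochberg, and the threshold was 0.1. Arrays of the same replicate number deviated together in 6 of 6 pairs of groups (r = 0.143 to 0.219), so values from a fit that blocks on this number are given beside results they change. The number's meaning is not given in the sources used here. The methods' detection and variation filters were not applied in the main fit. Alternatives were the block, an SD above 0.25, a mean above background, repeated quantile normalization, no variance trend, a plain linear model, and leaving out each array. Every probe set of the 10 genes was reported, and of the further genes, each read at its probe set with the highest mean, those called with or without the block. Markers were read likewise and reported where called between the tissues or the breeds. The genes and lists were chosen with earlier results of these data known. The main fit was tried on simulated data first, and the fit with the block was not. Intervals rest on 2 arrays per group, whose number limits the precision.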

Additional observations from a re-analysis of the deposited data

Results flagged for a closer look

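At 4 probe sets the matched arrays of one stratum moved one way and those of the other moved the opposite way. The breed difference of CRABP2 was below 0 in both FP pairs and above 0 in both FS pairs, with a difference between them of -0.66 at the probe set with the higher mean and -0.40 at the second. RARA was lower in FP than in FS in both AS pairs and higher in FP in both DL pairs, a difference of -0.36. RARG was higher in AS in both FP pairs, by only 0.009 and 0.003, and lower in both FS pairs (-0.03 and -0.16), a difference of 0.10. The RARG breed difference in FP, 0.006, changed sign without AS-FP replicate 1 or DL-FP replicate 2. The value of -0.40 became 0.10 without DL-FS replicate 2. None of the 4 passed in the breed-by-tissue test (limma, adjusted p = 1.0 each). With the replicate block, CRABP2 at the probe set with the higher mean (adjusted p = 0.601) and RARA (adjusted p = 0.699) did not pass either. Dixon's test found no outlying array in 40 groups of 4 arrays.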

How the results depend on the processing

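With the replicate block the number of called probe sets was 2 of 10 for AS minus DL, 3 for FP minus FS, 2 for FP minus FS in DL, 1 in AS and 1 for AS minus DL in FP. Over all probe sets the block gave 1451 calls for AS minus DL (318 without it) and 471 for FP minus FS (126 without it). Keeping probe sets with an SD above 0.25 left 5 of the 10 and called 1 between the breeds, ALDH1A1 (adjusted p = 0.0554). Of all 15281 probe sets kept by this filter, 227 were called between the breeds. For FP minus FS, 0 were called without a variance trend (RARB adjusted p = 0.136) and 0 with the plain linear model (0.586). Over all 47722 probe sets these fits called 62 and 1, against 126 in the main fit. Leaving out each array gave 0 to 1 calls among the 10 for FP minus FS, and 31 to 83 over all probe sets. The count among the 10 was 0 without DL-FP 1, DL-FP 2, DL-FS 1, AS-FP 1, AS-FP 2 or AS-FS 1. The cause was not tested. ALDH1A3 and PPARG lost their calls without the variance trend (0.128 and 0.101) and with the plain linear model. RARB remained called with repeated quantile normalization (0.0325) and above background (0.0406). Of 70 differences (10 probe sets in 7 comparisons), 9 were called with or without the block, and 0 of these changed sign under any alternative run. Among the others 20 did. Without DL-FP replicate 2, ALDH1A1 gave -0.27 for FP minus FS (0.07 with all arrays) and the second CRABP2 probe set changed sign for AS minus DL, as it also did without 3 other arrays (-0.25 to -0.15). The mean of both DHRS3 probe sets gave -0.08 for FP minus FS, against -0.25 for the probe set with the higher mean. With 2 arrays per group, the 95% interval of ALDH1A1 between the breeds spanned -1.81 to -0.40.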
